A study of Mus musculus with 6 samples.

Results

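Heat shock proteins and chaperonins of the cytosol, their co-chaperones and their closest mitochondrial relatives were followed between cultured central memory and effector/effector memory CD8+ T cells. The group was a named list of 43 genes, and its members were all probe sets whose platform annotation gave 1 of these symbols alone. This found 88 probe sets of 36899 on the arrays, for 38 of the 43 genes, among 15964 named genes in all. No probe set was named for Hsf1, Hsp90ab1, Trap1, Ahsa1 or Ptges3 alone, so these 5 genes were not analysed here.

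The donors were female P14 mice (C57Bl/6), whose transgenic T cell receptor recognises a viral peptide. Homogenized spleen and lymph node cells were given that peptide for 2 days and then a single cytokine for 7 days. The central memory (CM) group had IL-15 and was sorted for high levels of a surface marker. The effector/effector memory (E/EM) group had IL-2 and was sorted for low levels of it. These are therefore in vitro models of the memory states, and cytokine, sort and cell state cannot be told apart. Total RNA of each group was hybridised to 1 array of each of 3 types, named SubA, SubB and SubC, and each type has its own probe sets. Whether the 3 arrays of a kind shared 1 RNA preparation is not stated. There was no replicate, so no test was made and each value describes these 6 arrays. In bulk RNA, fewer cells expressing a gene and less RNA per cell cannot be told apart.

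Chaperones bind unfolded stretches of other proteins and keep them from clumping while they fold. HSP70 proteins do so in cycles of ATP use that J domain proteins start and nucleotide exchange factors such as the BAG proteins and HSP110 complete, and HSP90 takes over partly folded kinases and receptors. The chaperonin CCT (also called TRiC) is a ring of different subunits that folds actin and tubulin. Heat shock factors, above all HSF1, bind heat shock elements in the promoters of many of these genes when unfolded protein builds up, and T cell activation is known to raise several of them.

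The stress-inducible HSP70 genes stood apart from the rest of the group. Hspa1a and Hspa1b, neighbouring genes for near-identical HSP70 proteins, were low in CM cells and clearly measured in E/EM cells. The 35 other measured members all lay within 2-fold. Most genes did so too: of 10946 named genes with a ratio, 5.61% were at least 2-fold lower and 2.73% higher. Since the signal of the HSP70 pair carries the finding and since heat shock elements are what the family is known for, the promoters of both genes are shown first, beside those of Hspe1, the mitochondrial co-chaperonin HSP10, and of Hsph1, an HSP110. The last pair carries longer elements and differed little between the cells. The sequences are RefSeq's for build GRCm38.p6, from 250 bases before to 50 after the annotated start. They lie at chr17:34972107-34972406 (minus strand) for Hspa1a, chr17:34959189-34959488 (minus) for Hspa1b, chr1:55087898-55088197 (plus) for Hspe1 and chr5:149636266-149636565 (minus) for Hsph1. Capitals mark matches to the element, searched as GAANNTTC and TTCNNGAA, each of which reads the same on both strands. Only exact blocks were searched, so elements with imperfect blocks are neither marked nor counted, and element lengths here are those of exact matches.
Hspa1a: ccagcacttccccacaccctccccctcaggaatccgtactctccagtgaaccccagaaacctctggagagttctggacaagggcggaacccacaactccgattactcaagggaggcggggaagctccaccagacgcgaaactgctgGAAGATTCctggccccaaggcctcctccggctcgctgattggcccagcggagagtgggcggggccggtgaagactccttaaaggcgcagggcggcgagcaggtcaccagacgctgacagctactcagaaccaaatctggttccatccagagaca
Hspa1b: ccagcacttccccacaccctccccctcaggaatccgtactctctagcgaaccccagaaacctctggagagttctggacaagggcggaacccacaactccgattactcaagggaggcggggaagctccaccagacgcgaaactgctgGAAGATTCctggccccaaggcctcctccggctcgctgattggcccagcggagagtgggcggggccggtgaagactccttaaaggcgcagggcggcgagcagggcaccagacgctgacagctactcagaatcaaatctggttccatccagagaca
Hspe1: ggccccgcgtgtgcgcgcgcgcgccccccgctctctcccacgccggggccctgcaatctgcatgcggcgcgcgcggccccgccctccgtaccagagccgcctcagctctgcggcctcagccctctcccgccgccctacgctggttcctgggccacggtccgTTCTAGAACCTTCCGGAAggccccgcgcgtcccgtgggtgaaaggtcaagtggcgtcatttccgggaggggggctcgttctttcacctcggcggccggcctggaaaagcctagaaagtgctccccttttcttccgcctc
Hsph1: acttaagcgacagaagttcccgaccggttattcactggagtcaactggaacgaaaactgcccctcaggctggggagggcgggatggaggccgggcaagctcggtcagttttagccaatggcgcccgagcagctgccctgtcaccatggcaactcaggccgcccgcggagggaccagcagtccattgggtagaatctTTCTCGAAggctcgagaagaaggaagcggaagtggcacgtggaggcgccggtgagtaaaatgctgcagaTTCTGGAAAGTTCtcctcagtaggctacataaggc

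The Hspa1a and Hspa1b windows shared 296 of 300 bases (98.7%), 247 of them among the 250 before the start. Each held a single match, which began 104 bases before the start. The Hspe1 window held 3 overlapping matches, which together form an element of 3 or more alternating blocks, the first of them 89 bases before the start. The gene for its partner Hspd1 (HSP60) runs the opposite way from the same stretch, and 1 of its annotated windows overlapped that of Hspe1 by 285 bases and held the same element.

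RefSeq promoters matched 34 of the 43 genes. A match was found in 15 of these genes (44.1%), against 17.0% of the 27025 genes of the table (15.1% of its 32851 windows). An element of 3 alternating blocks was found in 4 members, Dnajb6, Hspd1, Hspe1 and Hsph1 (11.8%), against 0.662% of all genes. The median log2 ratio was -0.07 over the 13 measured members with a match and -0.06 over the 16 without, and Hspa1b, known only by a bound, also has a match. The first set ran from Hspa1a at -4.49 to Dnaja1 at 0.80 and the second from -0.74 to 0.49. Both members past 2-fold, Hspa1a and Hspa1b, have a match, but their windows are near-identical and are not independent observations. Whether ratio and match are related was not tested. A match is a description of the letters in the window and does not show that a factor binds there.

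**Figure D1:**
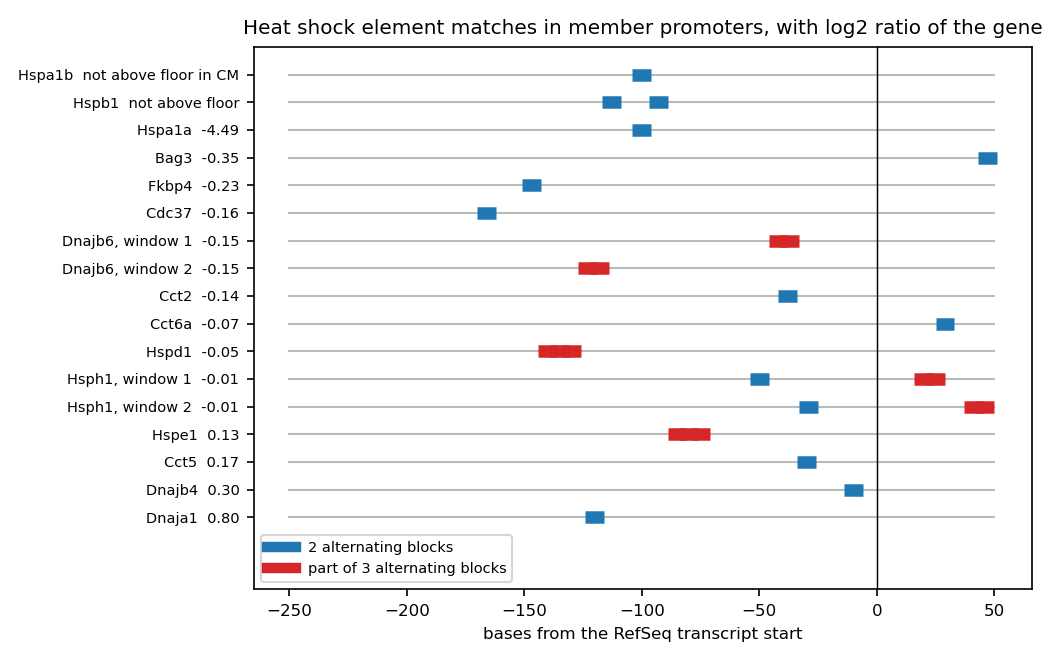
Position of heat shock element matches in the promoter windows of the 15 members that have one, in bases from the annotated start. Each line is 1 window (Dnajb6 and Hsph1 have several overlapping ones), blue blocks are 2 alternating blocks and red ones belong to 3, and the number after each name is the log2 ratio, CM over E/EM, where one was measured. Hspa1a and Hspa1b have their match at the same place, and genes with the longer red elements lie near 0.

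A probe set counted as measured where its signal passed a floor on both arrays of its type. The floor was the higher of the arrays' 90th percentiles over 15 bacterial control probe sets, 31.28 on SubA, 88.12 on SubB and 194.34 on SubC. Of the 88 probe sets, 67 were measured, 3 passed in E/EM cells alone, 1 in CM cells alone and 17 in neither. A gene's value is the log2 of its CM signal over its E/EM signal, averaged over its measured probe sets, so negative means lower in CM cells. The error given is the standard deviation (SD) over probe sets, which is technical. A gene given without an SD rests on 1 measured probe set. As a yardstick for those, the median SD over 4094 genes with several probe sets was 0.32.

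By these rules 36 members had a ratio, Hspa1b had a bound and Hspb1 had neither. At least 2-fold lower in CM cells was 1 of 36 members, Hspa1a, against 5.61% of 10946 named genes with a ratio. At least 2-fold higher was 0 of 36, against 2.73%. With the bound of Hspa1b added, 2 of 37 were at least 2-fold lower, against 7.00% of 12529 genes. At 1.5-fold in either direction the members numbered 4 of 36, against 24.0% of all measured genes. The median over the 36 was -0.08, or -0.08 with Hspa1b at its bound, beside -0.0025 over all measured genes. The middle 50% of members ran from -0.24 to 0.14 and that of all genes from -0.33 to 0.29. Of the 36 ratios, 26 were no larger than their own SD, or than the median SD where there was 1 probe set. The same count was not made over all named genes, so it is not read as a trait of the members.

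**Figure D2:**
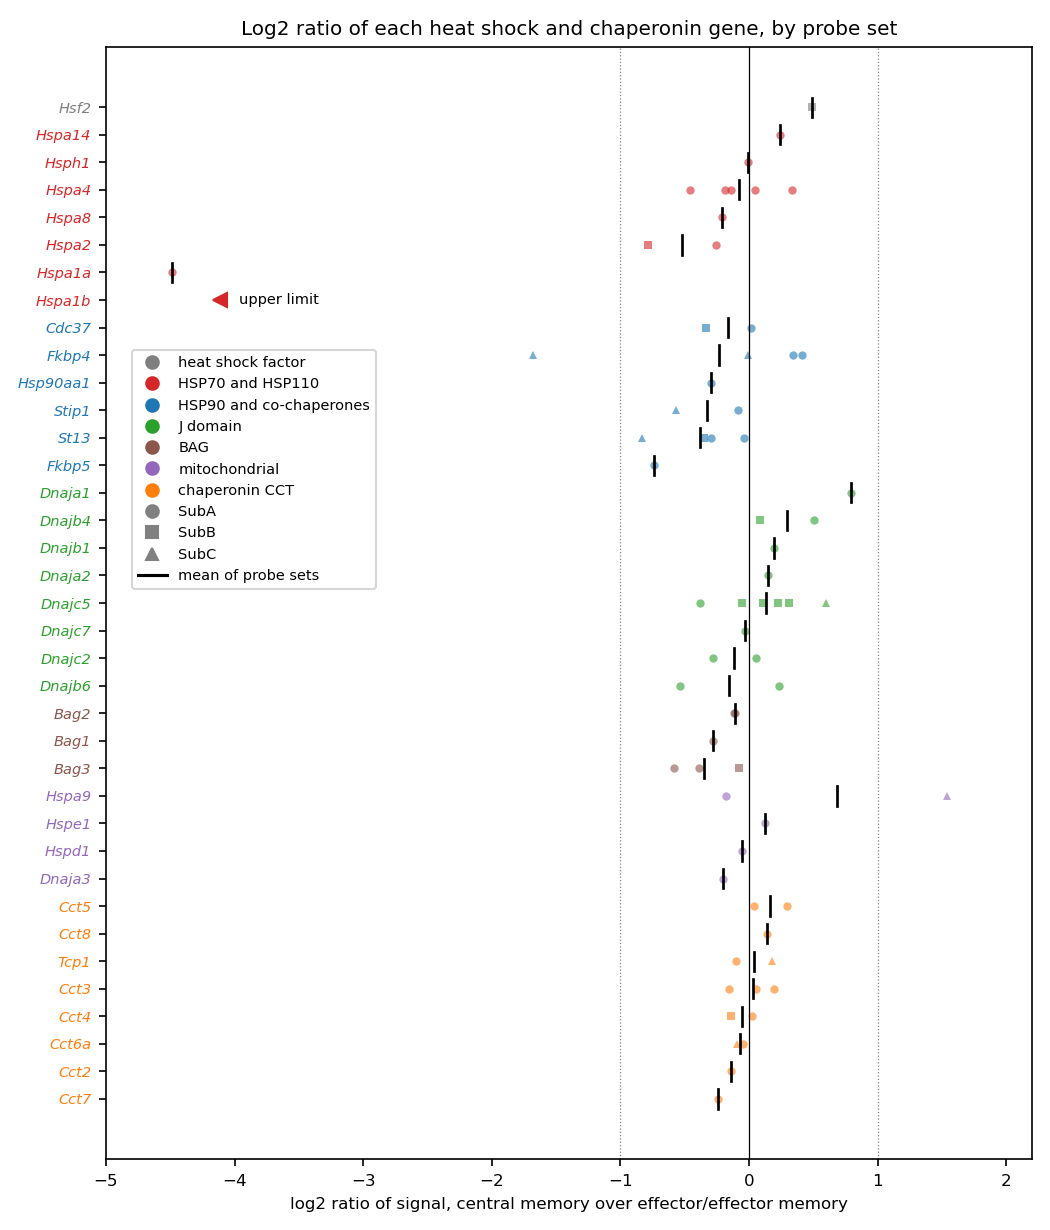
Log2 ratios, CM over E/EM (x axis), for the 37 members with a ratio or a bound, coloured by role. Each point is a probe set, its shape the array type, the black bar the mean, and dotted lines mark 2-fold. Hspa1a at -4.49 and the upper limit for Hspa1b lie far to the left of all other genes, while single SubC points of Fkbp4 and Hspa9 lie past 2-fold away from the rest of their gene.

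Among the HSP70 genes, the SubA probe set of Hspa1a had a signal of 39.4 in CM and 882.5 in E/EM cells. Its signal was thus 22.4-fold lower in CM cells, a log2 ratio of -4.49, and the CM signal was 1.26 times the floor. With the floor doubled it could be given only as a bound, at least 14.1-fold lower, and with a floor at the 60th percentile of the signals at least 3.68-fold. Only 6 of the 10946 measured genes had a lower ratio. A second probe set of Hspa1a, on SubC, had signals of 2.9 and 19.9, both under that array's floor, and gave no ratio. Hspa1b had a signal of 15.7 in CM cells, under the floor, and 541.7 in E/EM cells. It was therefore at least 17.3-fold lower in CM cells, a bound that scales with the floor and became 8.66-fold with the floor doubled and 2.26-fold at the 60th percentile. Of 990 genes that passed the floor in E/EM cells alone, 3 had a larger bound. Because the genes are near-identical, either probe set may take up transcripts of both, and how the signal divides between them is uncertain.

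The other HSP70 and HSP110 genes gave another picture. Hspa8, the HSC70 of unstressed cells, had 7730.2 in CM and 8925.9 in E/EM cells, a log2 ratio of -0.21. This is a difference of 1.15-fold and smaller than the usual spread between probe sets. Hspa4, an HSP110 type exchange factor, had 5 measured probe sets whose ratios ran from -0.46 to 0.33, with a mean of -0.08 ± 0.29 (SD). Their signs were mixed. Hsph1, the other HSP110, had 1875.3 and 1885.5, equal to within 1.01-fold. Hspa14, a ribosome-associated HSP70, had 706.1 and 596.7 on SubA and a log2 ratio of 0.24 that became -0.15 after quantile normalization. A SubB probe set went the opposite way, with 86.8 in CM cells, just under the floor, and 153.0 in E/EM cells. Hspa2, best known from the testis, had 34.1 and 40.7 on SubA and 190.9 and 329.5 on SubB. Its log2 ratio was -0.52 ± 0.38 (SD, 2 probe sets), with both probe sets below 0 and the weaker signal of the first only 1.09 times the floor. Over the 6 HSP70 and HSP110 genes with a ratio the median was -0.14, and -0.21 with Hspa1b at its bound.

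**Figure D3:**
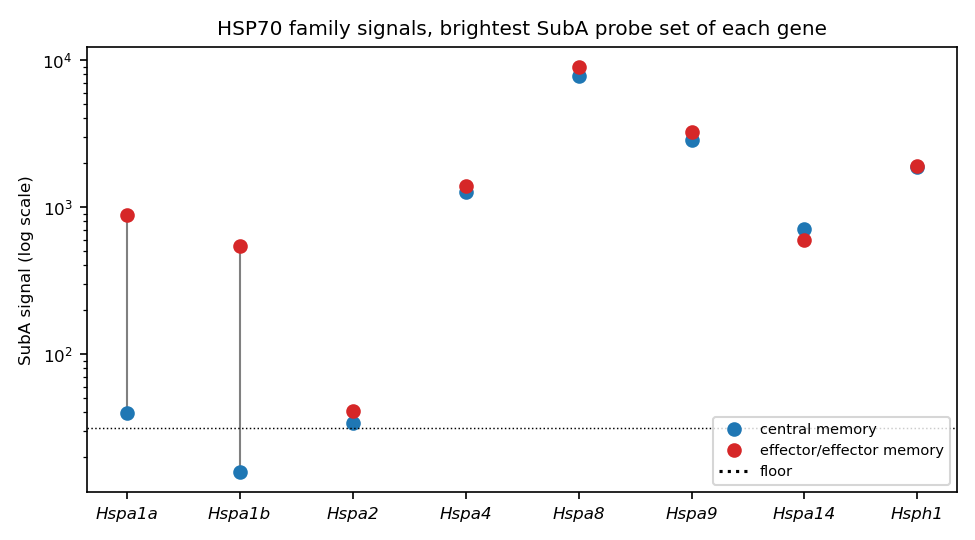
SubA signals (log scale) of the brightest probe set of each HSP70, HSP110 and mitochondrial HSP70 gene in CM (blue) and E/EM cells (red), 1 array each, with the floor of 31.28 dotted. Hspa1a and Hspa1b are far apart between the cells and the other 6 genes nearly overlap; heights are not comparable between genes.

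Of the heat shock factors among the members only Hsf2, which takes part in development and modulates HSF1, was measured. It had 241.4 in CM and 172.3 in E/EM cells on SubB, a log2 ratio of 0.49 with a weaker signal 1.96 times the floor. A further Hsf2 probe set on SubA lay under the floor in both. Hspb1, the small heat shock protein HSP27 and a well-known HSF1 target, had 10.8 and 19.5 on SubA and 100.5 and 102.9 on SubC. All of these are under the floor, so no level was measured for it in either cell.

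The J domain proteins, which hand substrates to HSP70 and trigger its ATPase, had a median of 0.14 over 8 measured genes, 5 above 0 and 3 below. Dnaja1, a farnesylated partner of HSC70, had 1752.1 in CM and 1009.7 in E/EM cells. Its log2 ratio of 0.80 (1.74-fold higher in CM cells) was the highest of all members, and 575 of the measured genes had a higher one. Dnajb1 (HSP40), the partner of inducible HSP70, had 1046.2 and 912.4 on SubA, a log2 ratio of 0.20. A SubC probe set of Dnajb1 had 292.1 in CM cells and 136.2 in E/EM cells, the latter under the floor. Both probe sets were thus higher in CM cells, but the SubA ratio was smaller than the median SD of 0.32. The SubC difference rests on a signal under the floor. A direction opposite to that of Hspa1a and Hspa1b is therefore not settled for Dnajb1.

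Dnajb4 had 0.30 ± 0.29 (SD, 2 probe sets) and Dnaja2 0.15, with signals of 255.0 and 229.7. Dnajc5, the cysteine string protein of secretory vesicles, was measured by 6 probe sets on all 3 array types. They ran from -0.38 on SubA to 0.60 on SubC, with a mean of 0.13 ± 0.34 (SD). Dnajc7, which binds both HSP70 and HSP90, had -0.03 with signals of 2322.5 and 2372.6. Dnajc2, a ribosome-associated J protein, had -0.12 ± 0.24 (SD, 2 probe sets). Its SubC probe set had 138.2 in CM cells, under the floor, and 350.2 in E/EM cells. Dnajb6, a suppressor of protein aggregation, had SubA probe sets of opposite sign, 1114.5 against 1618.5 and 3392.1 against 2892.0, and a mean of -0.15 ± 0.54 (SD). Apart from Dnaja1, then, none of the J domain genes was 1.5-fold apart in its mean, against 24.0% of all measured genes.

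HSP90 and its co-chaperones had means below 0 in all 6 measured genes, against 5504 of all 10946 measured genes, with a median of -0.31. Only St13 was past its own SD and only Fkbp5, on 1 probe set, past the median SD. The other ratios lay within that spread. For Fkbp4 and Cdc37 the direction differed between probe sets, and on SubA alone both were above 0. Hsp90aa1, the inducible HSP90, had 8604.7 in CM and 10589.3 in E/EM cells, a log2 ratio of -0.30. Fkbp5, an immunophilin of steroid receptor complexes and a classical glucocorticoid target, had 1719.0 and 2876.1. Its log2 ratio of -0.74 (1.67-fold lower in CM cells) was the lowest in this set and the only one past 1.5-fold. St13 (HIP), which stabilises HSP70 bound to substrate, had 4 measured probe sets, all below 0. They ran from -0.83 on SubC, with 1491.6 against 2653.6, to -0.04 on SubA, and their mean was -0.38 ± 0.33 (SD).

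Stip1 (HOP), the adaptor between HSP70 and HSP90, had 773.9 and 819.8 on SubA and 738.1 and 1094.4 on SubC. Its mean was -0.33 ± 0.34 (SD, 2 probe sets), no larger than its spread. Cdc37, which brings kinases to HSP90, had 0.01 on SubA and -0.34 on SubB, with a mean of -0.16 ± 0.25 (SD). Fkbp4, the immunophilin related to Fkbp5, disagreed between probe sets. On SubA it had 1906.8 against 1506.9 and 814.2 against 612.2, on SubC 642.6 against 646.6 and 481.7 against 1545.1. The last gave -1.68 where the others lay between -0.01 and 0.41, and the mean was -0.23 ± 0.98 (SD, 4 probe sets), of no clear direction. On SubA alone the median of the 6 genes was -0.13.

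Of the BAG proteins, which release substrate from HSP70, Bag3 had the lowest ratio. BAG3 is an HSF1 target that works in selective autophagy. It had 135.8 in CM and 203.9 in E/EM cells on its brighter SubA probe set, 61.2 and 80.3 on the other, and 91.1 and 96.0 on SubB, with a mean of -0.35 ± 0.26 (SD). All 3 were below 0. Bag1 had 883.5 and 1073.1, a log2 ratio of -0.28. Bag2 had 500.4 and 538.9 and, on a second probe set, 528.4 and 573.2, a mean of -0.11 ± 0.0074 (SD). Its probe sets agreed closely on a difference of 1.08-fold.

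The mitochondrial chaperones had a median of 0.04 over 4 genes, which was -0.12 on SubA alone. Hspd1 (HSP60), the chaperonin of the matrix, had 7468.8 in CM and 7740.0 in E/EM cells, a log2 ratio of -0.05. Its lid Hspe1 (HSP10) had 3816.0 and 3499.0, a log2 ratio of 0.13. Dnaja3, a mitochondrial J protein, had 815.1 and 940.0, a log2 ratio of -0.21. Hspa9 (mortalin), the mitochondrial HSP70, had 2836.9 and 3211.9 on SubA but 882.2 and 302.8 on SubC. These ratios of -0.18 and 1.54 give a mean of 0.68 ± 1.22 (SD) with no settled direction, and the weaker SubC signal was 1.56 times the floor.

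The subunits of the chaperonin CCT were close to equal in both kinds of cell. All 8 genes were measured, with ratios between -0.24 and 0.17. All 8 lay within 1.5-fold, as did 8321 of all 10946 measured genes. The SD over the 8 genes was 0.14, beside 0.60 over all measured genes, which were not matched to these subunits for signal or number of probe sets. Their median was -0.01, or 0.06 after quantile normalization, with 4 above 0 and 4 below. Cct5 had 6426.6 in CM and 5241.7 in E/EM cells on its brighter probe set and a mean of 0.17 ± 0.18 (SD, 2 probe sets). Cct7 had 4484.6 and 5294.7, a log2 ratio of -0.24. Cct8 had 2730.2 and 2483.7, a log2 ratio of 0.14. Each of these ratios is smaller in size than the usual spread between probe sets of 1 gene.

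Cct4 had 4802.8 and 4723.7 on SubA and a mean of -0.06 ± 0.12 (SD, 2 probe sets), which became 0.09 after quantile normalization. Cct3 had 0.03 ± 0.18 (SD, 3 probe sets) and Tcp1, the alpha subunit, 0.04 ± 0.20 (SD, 2 probe sets). Cct2 had 397.8 and 438.5, a log2 ratio of -0.14. Cct6a had -0.07 ± 0.04 (SD, 2 probe sets).

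**Figure D4:**
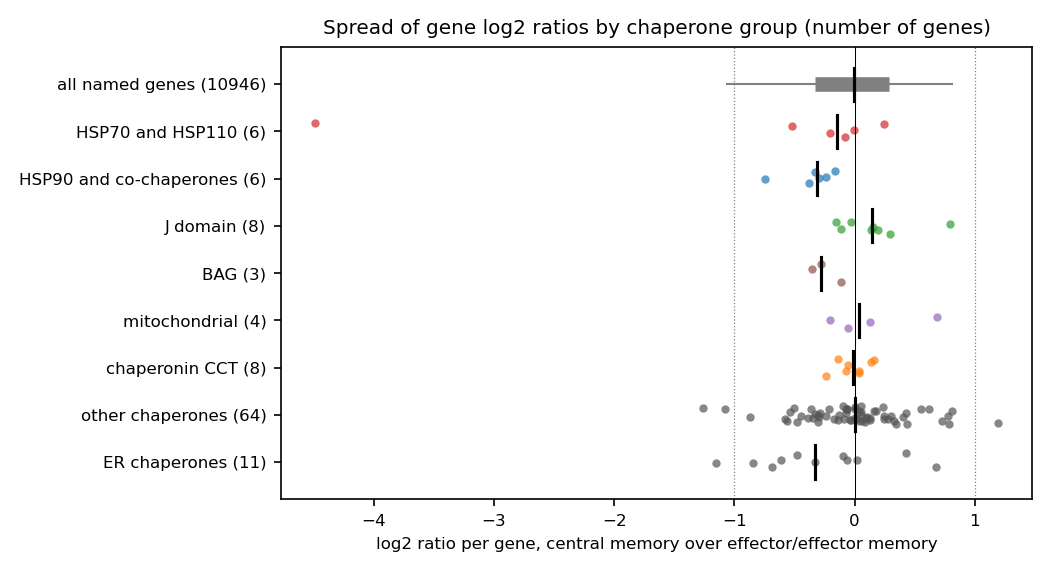
Log2 ratio of each measured gene (points) by chaperone set, with the median as a black bar and the number of genes in brackets; for all named genes the thick grey bar spans the middle 50% and the thin line the 5th to 95th percentile. The chaperonin CCT points crowd around 0, and Hspa1a is the single far point. The HSP90 points lie below 0, most of them within the spread between probe sets.

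A wider list of 71 further chaperone genes of the cytosol and mitochondria gave a similar picture. Of 64 with a ratio, 2 were lower in CM cells by 2-fold or more, against 5.61% of all measured genes, and 1 was higher by as much, against 2.73%. These shares are near or under those of all genes. The median was 0.0019, with 31 genes below 0 and 33 above. Tbcc, a tubulin folding cofactor, had 90.8 in CM and 218.0 in E/EM cells, a log2 ratio of -1.26. Lonp1, the protease and chaperone of the mitochondrial matrix, had 630.9 and 1331.3, a log2 ratio of -1.08. Hsf4, a further heat shock factor, had -0.87. Dnajc18 had -0.58 on its 1 measured probe set, while another passed the floor in CM cells alone and was at least 1.46-fold higher there. Hspb7, a small heat shock protein, passed the floor in E/EM cells alone and was at least 2.51-fold lower in CM cells. Dnajb2 had -0.33 ± 0.38 (SD, 2 probe sets) and a further probe set at least 4.75-fold lower. Grpel2, an exchange factor of mitochondrial HSP70, had one at least 4.26-fold lower, but its 3 measured probe sets ran from -0.98 to 2.78. At the other end were Dnajc27 at 1.19, with 912.9 against 399.9, Hsbp1, a protein that binds HSF1, at 0.81, Dnajc24 at 0.78 and Dnaja4 at 0.73 ± 0.57 (SD, 3 probe sets). The prefoldin subunits, which deliver substrates to CCT, lay between Pfdn1 at -0.30 and Pfdn4 at 0.34. None of the gene ratios in this list came near that of Hspa1a, the lowest being -1.26. The bounds are least differences, so how much lower those probe sets were is unknown.

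The chaperones of the endoplasmic reticulum, set beside these, had a median of -0.33 over 11 genes, with 8 below 0, against 5504 of all 10946 genes. At least 2-fold lower was 1 of the 11, Sdf2l1, against 5.61% of all genes. Their HSP70, Hspa5 (BiP), had 3870.8 in CM and 5398.1 in E/EM cells, and their HSP90, Hsp90b1 (GRP94), 3942.3 and 4943.5. The 3 genes above 0 were Dnajb9 at 0.67 ± 0.43 (SD, 2 probe sets), Dnajc3 at 0.43 ± 0.66 (SD, 4 probe sets) and Pdia6 at 0.02 ± 0.14 (SD, 3 probe sets). No test of a difference between the compartments was possible.

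**Figure D5:**
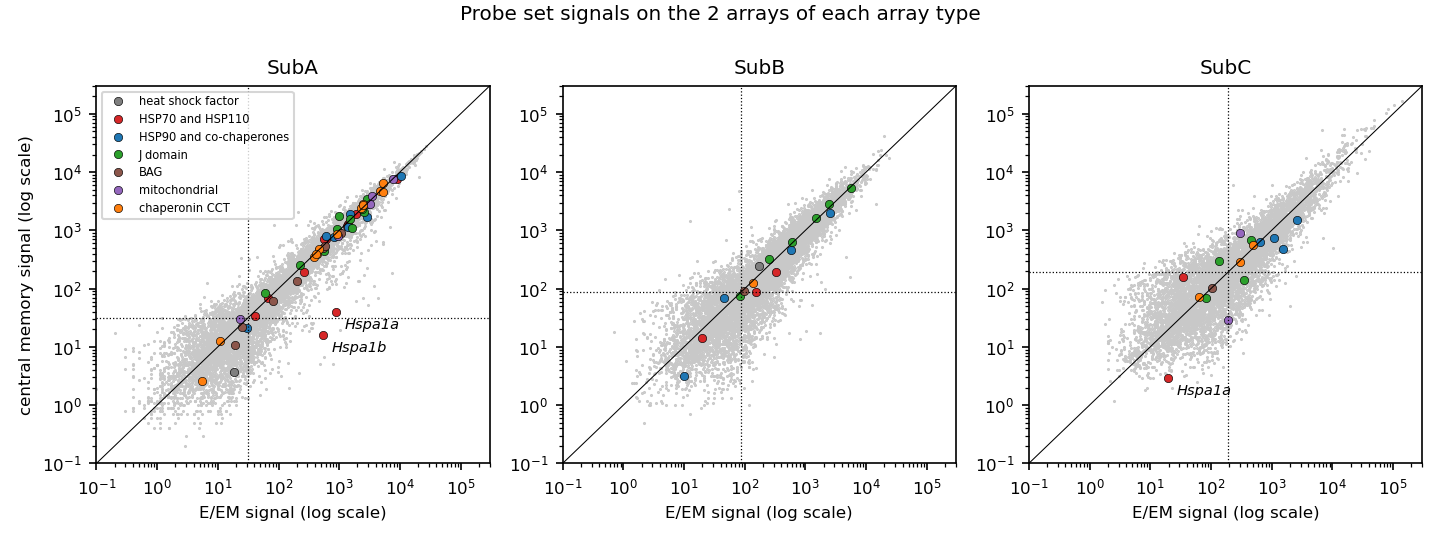
Signals in CM (y axis) against E/EM cells (x axis), both on log scales, for named probe sets (grey) and members (coloured by role) on the arrays of each type, with the floor dotted and equality as a line. Most member probe sets above the floor lie close to the line, and on SubA those of Hspa1a and Hspa1b lie well under it; below the floor the cloud widens.

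Markers of the labelled cell type were strong on both sides. The 9 CD8 T cell markers found, among them Cd8a, Cd8b1 and Cd3e, passed the floor in both groups, with signals of 50059.5 in CM and 49510.2 in E/EM cells, summed over the brightest probe set of each gene. The macrophage and monocyte markers passed it for 3 of 6, with sums of 257.3 and 432.1, and Lyz2, Adgre1 and Itgam did not pass it in either. All sums here are over every marker found, those under the floor included. The dendritic cell markers passed for 4 of 4, with 612.8 and 947.1, the B cell markers for 4 of 5, with 566.0 and 483.5, and Cd4 had 131.7 and 49.3. The erythroid markers passed for 3 of 3, with 245.0 and 223.1, and the stromal ones for 4 of 4, with 641.3 and 660.3. The macrophage and dendritic cell sums were higher in E/EM cells, as were Hspa1a and Hspa1b. The dendritic list went both ways, with H2-Ab1 at 211.0 and 516.5 but Itgax at 130.3 and 43.1. The part of these cells in the Hspa1a and Hspa1b difference was not tested. The ratio of 3' to 5' signal of the actin control, a measure of intact RNA, ran from 1.06 to 1.17 over the 6 arrays. On SubA, which carries the Hspa1a and Hspa1b values, it was 1.06 in CM and 1.09 in E/EM cells.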

How the data were processed

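The deposited values are linear signal intensities of probe sets, 1 table per array type with a CM and an E/EM column. The sources used here do not name the authors' software or the steps behind the intensities. Each array's mean without its lowest and highest 2% lay between 500.1 and 500.3, so the deposited values were used with no further normalization. Symbols came from GEO's platform annotation. Probe sets with several symbols were left out, among them 1 shared by Ptges3 and its pseudogene, with signals of 996.1 and 1022.3, and control probe sets were not counted as genes.

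Ratios, floors, means and SDs were computed as the text describes, with Python 3.11.15, numpy 2.4.6 and pandas 2.3.3. The ratio, floor and mean steps were also run on simulated data with known ratios. That run checks the computation and says nothing of the precision of arrays without a replicate. No p-value was computed, and counts use a rule of size of 2-fold. Number of arrays limits the precision. Motifs were searched in RefSeq promoters of GRCm38.p6. Promoter windows were not used here for Hsf1, Hsp90aa1, Hsp90ab1, Hspa8, Hspa9, Dnajc2, Dnajc5, St13 and Cct4.

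The members, the wider lists and the settings were chosen with earlier results of these data known. The rule for named genes took every member, and from the wider list the 4 highest and 4 lowest ratios whose measured probe sets had 1 sign and every bound of at least 2-fold. The prefoldins, the endoplasmic reticulum genes and the neighbours of the HSP70 genes were picked with their values in view. Alternatives tried were quantile normalization, centred ratios, a halved or doubled floor or one at the 60th percentile, the brightest probe set, the median over probe sets, leaving out probe sets marked as less specific, adding those with several symbols, fewer array types, and 3-fold or 1.5-fold rules.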

Additional observations from a re-analysis of the deposited data

How the results depend on the processing

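With the floor halved, 2 members were at least 2-fold lower in CM cells, since Hspa1b then had a ratio of -5.11 beside Hspa1a at -4.49. With the floor doubled or set at percentile 60 of the signals the count was 0, because Hspa1a fell under the floor in CM cells and had only a bound, at least 14.1-fold and 3.68-fold lower. Hspa1b was then at least 8.66-fold and 2.26-fold lower. A 1.5-fold rule gave 2 lower and 2 higher members, and the other 21 values of these counts did not move. Of the medians of the sets, 17 values moved by over 0.1 or changed sign and 60 did not, a limit chosen after the values were seen. The HSP70 and HSP110 median was -0.29 with the floor halved and -0.0027 with the percentile 60 floor. The HSP90 median was -0.19 with the brightest probe set, -0.13 on SubA alone and -0.20 without SubC. The CCT median was 0.057 after quantile normalization and 0.028 with the floor doubled or at percentile 60. The mitochondrial median was 0.14 with the floor halved, and -0.12 with the floor doubled, the brightest probe set, SubA alone or no SubC. The median of the wider chaperone list was -0.040 with the floor halved, -0.0096 with the brightest probe set, -0.00024 without marked probe sets and -0.027 on SubA alone. Of the 36 members with a ratio, 10 changed sign under some alternative. Among them were Hspa9, from 0.68 to -0.18 on SubA alone, Fkbp4, from -0.23 to 0.38 on SubA alone, Hspa14, from 0.24 to -0.29 with the floor halved, and Dnajc5, from 0.13 to -0.38 on SubA alone. Hspa4, Hspd1, Dnajb6, Cdc37, Tcp1 and Cct4 were the other 6. Dnajb1 kept its sign and went from 0.20 to 0.65 with the floor halved. Quantile normalization shifted the median of all genes by 0.04. The arrays carry no replicate, SubC has the highest floor, and values near a floor are the least certain.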

Other observations

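Among the genes that neighbour Hspa1a and Hspa1b in the major histocompatibility region, none with a ratio was as low as Hspa1a. These neighbours were looked up after the values of the HSP70 pair were seen, as the 8 protein-coding genes on either side in RefSeq's order. Of the 16, 12 had a log2 ratio, with a median of -0.28 and a range from -0.71 (Sapcd1) to 0.07 (Skiv2l). All of these but Skiv2l were below 0, as the HSP70 pair was, against 5504 of all 10946 measured genes. Of the 12, 0 were 2-fold apart, while 5.61% of all measured genes were lower by as much and 2.73% higher. A count of 0 in so few genes is near those shares. Whether the neighbours and the pair are related was not tested. Hspa1l, the testis HSP70 next to Hspa1a, had 29.7 in CM and 23.9 in E/EM cells, both under the floor. Neu1, a lysosomal sialidase on the other side, had -0.28, and Lsm2, an RNA-binding protein, -0.28. Clic1, an intracellular chloride channel protein, had 341.9 and 537.3, a log2 ratio of -0.65.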
